A study of Mus musculus with 14 samples.

Results

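The cathepsins are the proteases and peptidases of the lysosome, and 10 of their genes, Ctsa, Ctsb, Ctsc, Ctsd, Ctsh, Ctsk, Ctsl, Ctso, Ctss and Ctsz, are described here in sorted mouse lung cells. They were taken by gene symbol from a table of 43432 genes, and all 10 passed the filter on low values that left 17390 genes for testing. Male 129S1 mice, 10 to 12 weeks old, were given bleomycin (3 U/k, as the labels write the dose) or water into the trachea, and SiglecF+ CD11c+ cells were sorted from their lungs. The libraries fell into 5 groups: MHCII-low cells of water-treated mice (control, 2 libraries), and MHCII-low and MHCII-high cells taken 2 weeks and 4 weeks after bleomycin (3 libraries each). No MHCII-high cells of water-treated mice were analysed here, so the 2 control libraries are the only untreated reference, and the bleomycin comparisons are made in MHCII-low cells. The labels do not say whether libraries came from separate mice or pools, so the p-values measure the spread between these libraries, which may be technical.

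Most cathepsins are made as inactive precursors, carried to the endosome and lysosome by mannose 6-phosphate receptors, and activated there by acid and by each other. Ctsb, Ctsc, Ctsh, Ctsk, Ctsl, Ctso, Ctss and Ctsz encode cysteine proteases, Ctsd encodes an aspartic protease, and Ctsa encodes a serine carboxypeptidase that also protects lysosomal neuraminidase and beta-galactosidase. In macrophages cathepsins degrade ingested and worn-out protein, and cathepsins S and L also cut the invariant chain that guards newly made MHC class II molecules. Cathepsin K is best known as the collagen-degrading enzyme of osteoclasts and is also made by macrophages and fibroblasts. SiglecF with CD11c marks alveolar macrophages, and bleomycin instillation is a standard model of lung injury and fibrosis.

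The values are the authors' normalized counts, and differences are on the scale of log2(normalized count + 1), tested with limma across all 17390 genes with Benjamini-Hochberg adjustment and a threshold of 0.05. The libraries held 15106415 to 88059576 reads, and the least-read cathepsin, Ctso, still had at least 1035 reads in each. Siglecf was listed at 3056 to 9551 and Itgax, which encodes CD11c, at 25185 to 44133 normalized counts, so the transcripts of both sorting markers were present in all 14 libraries. Mitochondrial ribosomal RNA took 3.12% to 28.99% of a library, with 3.42%, 18.32% and 12.71% in the 2-week MHCII-low libraries against 21.67% and 24.08% in control. Scaling to library totals without that RNA moved the median of all genes at 2 weeks against control from -0.09 to -0.28, and the share of called genes that were higher from 77.7% to 53.7%. The same scaling moved that share from 12.8% to 25.2% for 4 against 2 weeks in MHCII-low cells, with the all-gene median going from 0.03 to 0.16, and from 29% to 40.4% in MHCII-high cells.

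Cathepsin transcripts were among the most abundant in these cells, and Ctsd alone outweighed the other cathepsins together. The 10 genes took 1.37% and 2.21% of the normalized counts outside mitochondrial rRNA in the control libraries, 2.95% to 4.39% in 2-week MHCII-low cells and 2.84% to 3.18% in 2-week MHCII-high cells. At 4 weeks they took 2.04% to 2.42% in MHCII-low and 2.05% to 2.07% in MHCII-high cells. The 2-week libraries thus lay above all others, with no overlap. Ctsd made up 53.4% to 79.9% of the cathepsin counts of a library. Control replicate 1 had the lowest share of the 14 and 2-week MHCII-low replicate 1 the highest, and in each the other 9 genes took 0.64% and 0.885% of the library, so Ctsd set most of their distance.

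**Figure D1:**
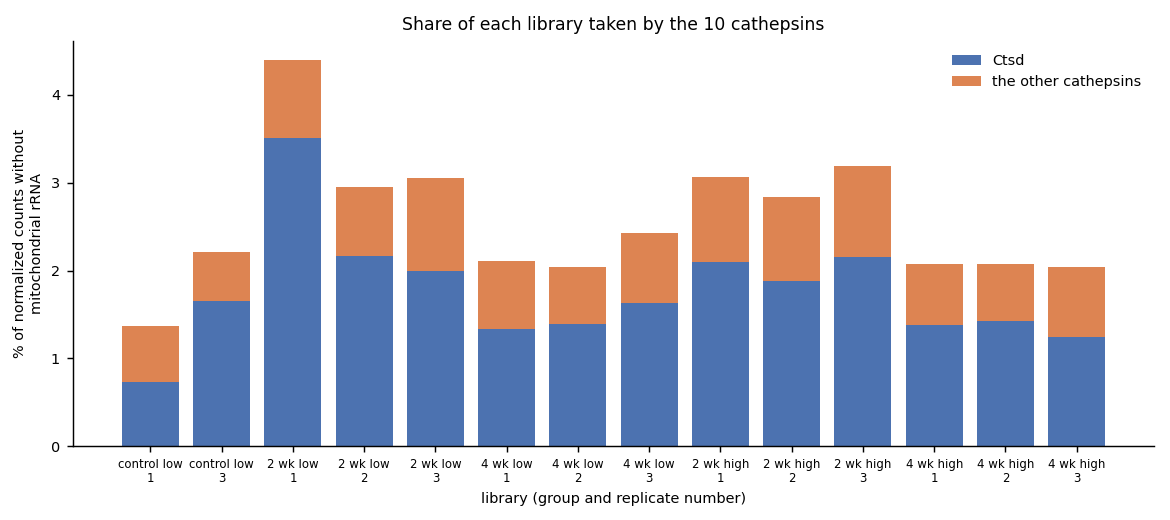
Percent of each library's normalized counts, mitochondrial rRNA left out, taken by Ctsd (blue) and by the other cathepsins together (orange), one bar per library, with its group and replicate number below. The 2-week libraries reach 2.84% to 4.39%, and the control and 4-week libraries 1.37% to 2.42%.

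Per kilobase of exon, the mean of the 5 group means ran from 209309 normalized counts per kb for Ctsd to 469 for Ctso. Ctsd was the fifth most abundant of the tested genes on this scale. Ctss followed at 36711, Ctsb at 15842, Ctsa at 9457, Ctsk at 7154, Ctsc at 6071, Ctsl at 4814, Ctsz at 4442 and Ctsh at 1218 normalized counts per kb. Not divided by length, Ctsb came before Ctss and Ctsc before Ctsk. The order was not firm in the middle: Ctsk was listed at 3080 to 16186 normalized counts per kb over the 14 libraries and Ctsc at 5350 to 7196, so their order depended on the group. The steadiest was Ctsc, whose highest library was 1.35 times its lowest, and the most variable were Ctsd (6.06 times), Ctsl (6.04 times) and Ctsk (5.26 times). Gene length and base content did not come in one kind: exon lengths ran from 1358 bases (Ctss) to 5801 bases (Ctsc) and GC contents from 38.04% (Ctsc) to 54.49% (Ctsa).

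At 2 weeks after bleomycin, 5 of the 10 cathepsins were higher in MHCII-low cells than in control MHCII-low cells: Ctsk, Ctsb, Ctsl, Ctsd and Ctss. Of all tested genes, 1.48% were called higher in this comparison. The median over the 10 cathepsins was 0.75 on the log2 scale, against -0.09 over all genes. All 10 estimates were above 0. On the deposited scale each 2-week library lay above both control libraries for all 10 genes, which held for 13.7% of all tested genes. As shares of the counts outside mitochondrial rRNA, Ctsa, Ctsc, Ctsh and Ctso overlapped. Their lowest 2-week libraries were at 0.149%, 0.105%, 0.0134% and 0.00735%, and their highest control libraries at 0.158%, 0.119%, 0.014% and 0.00895%. The estimate of Ctso turned to -0.06 when libraries were scaled to their totals without mitochondrial rRNA.

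Ctsk (ENSMUSG00000028111, chr3:95499256-95509362), the collagen-degrading cysteine protease, was listed at 5705 and 4564 normalized counts in control and at 23987, 16223 and 20683 in 2-week MHCII-low cells. All 2-week libraries lay far above both controls. The difference was 1.97 ± 0.19 on the log2 scale (SE, 95% interval 1.58 to 2.36, limma adjusted p = 9.6e-07), a 3.93-fold rise. Left out in turn, no library removed this call, and with the mitochondrial rRNA share as a covariate it stood at 1.86 with an adjusted p of 1.3e-05.

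Ctsb (ENSMUSG00000021939, chr14:63122462-63145919), a cysteine protease with both endopeptidase and exopeptidase activity, was listed at 37563 and 44016 normalized counts in control and at 74652, 69955 and 113595 at 2 weeks. Replicate 3 stood well above the other two. The rise was 1.05 ± 0.21 on the log2 scale (limma adjusted p = 0.0081), or 2.07-fold, and 0.93 with an adjusted p of 0.17 without control replicate 1.

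Ctsl (ENSMUSG00000021477, chr13:64363214-64370306), a cysteine endopeptidase of the lysosome, was listed at 7094 and 5285 normalized counts in control and at 25211, 12201 and 11912 at 2 weeks. Replicate 1 stood far above the other two, which in turn lay above both controls. The rise was 1.33 ± 0.28 on the log2 scale (limma adjusted p = 0.012). Without 2-week MHCII-low replicate 1 it was 0.98 with an adjusted p of 0.063, and without control replicate 3 it was 1.12 with an adjusted p of 0.28.

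Ctsd (ENSMUSG00000007891, chr7:142375911-142388038), the aspartic protease, was listed at 197325 and 484857 normalized counts in control and at 1195581, 699111 and 620450 at 2 weeks. The control libraries differed more from each other than control replicate 3 did from the lower 2-week libraries. The rise was 1.38 ± 0.32 on the log2 scale (limma adjusted p = 0.025). It rested on 2 libraries: without control replicate 1 it was 0.73 with an adjusted p of 0.52, and without 2-week MHCII-low replicate 1 it was 1.09 with an adjusted p of 0.12.

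Ctss (ENSMUSG00000038642, chr3:95526786-95556403), the invariant chain protease of antigen-presenting cells, was listed at 35720 and 29984 normalized counts in control and at 59994, 49126 and 63492 at 2 weeks. The groups did not overlap, and the rise was 0.81 ± 0.20 on the log2 scale (limma adjusted p = 0.033), or 1.75-fold. The call was lost without 2-week MHCII-low replicate 1 (0.77, adjusted p = 0.1), without replicate 3 (0.73, 0.12), without control replicate 1 (0.93, 0.11) and without control replicate 3 (0.68, 0.45). Scaled to library totals without mitochondrial rRNA, the difference was 0.60 with an adjusted p of 0.14, where the median of all genes was -0.28.

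The other 5 did not pass the limma test at 2 weeks. Ctsz (ENSMUSG00000016256, chr2:174427493-174439039), a carboxypeptidase of the cysteine class, came closest, with 5107 and 5171 normalized counts in control and 10019, 6190 and 9093 at 2 weeks (0.68 ± 0.19 on the log2 scale, limma adjusted p = 0.071). It was called with DESeq2 (0.73, adjusted p = 0.0082), TMM factors (0.047), the CPM filter (0.042) and the GC trend removed (0.024). It was also called without 2-week MHCII-low replicate 2 (0.89, adjusted p = 0.0095). So it was with a block of replicate numbers (0.027), which the labels do not link across groups. Ctsa (ENSMUSG00000017760, chr2:164832873-164841032) differed by 0.53 ± 0.19 and Ctsh (ENSMUSG00000032359, chr9:90054152-90076089), an aminopeptidase, by 0.45 ± 0.18. Ctsc (ENSMUSG00000030560, chr7:88278085-88310888), the dipeptidyl peptidase that activates granule serine proteases, differed by 0.22 ± 0.16, with a 95% interval of -0.12 to 0.56. For Ctso (ENSMUSG00000028015, chr3:81932601-81956725), a little-studied cysteine protease, the difference was 0.15 ± 0.20, with an interval of -0.26 to 0.56.

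**Figure D2:**
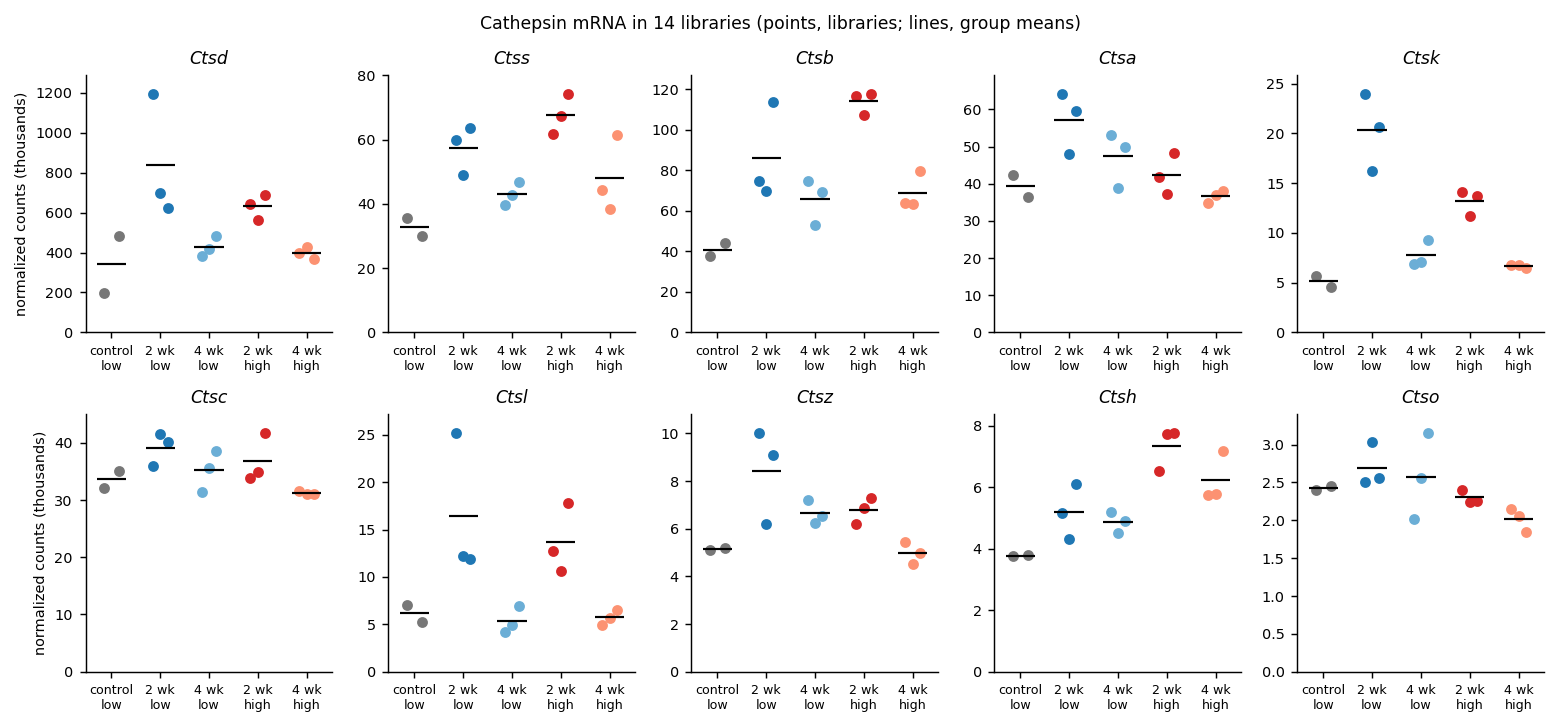
Normalized counts (in units of 1000, linear axes from 0, a separate scale per gene) of each cathepsin in each library, by group, with "low" and "high" for MHCII-low and MHCII-high cells; points are libraries and horizontal lines group means. Ctsk and Ctsl stand high in both 2-week groups and low in the control and 4-week groups, Ctsh is highest in the MHCII-high groups, and the 2 control libraries of Ctsd lie far apart.

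Counted over the 5 libraries, leaving out 1 at a time gave 2 to 6 cathepsins called at 2 weeks: 2 without 2-week MHCII-low replicate 1 or without control replicate 1, 3 without control replicate 3, 4 without 2-week replicate 3 and 6 without 2-week replicate 2. Over all genes 332 were called in the main fit, and 209, 307 and 218 without 2-week MHCII-low replicate 1, 2 and 3 in turn. Without control replicate 1 and 3 in turn, 139 and 127 of all genes were called. With the mitochondrial rRNA share as a covariate 2 were called, Ctsk and Ctsb (0.96, adjusted p = 0.044), among 213 of all genes. Fitted on the 5 libraries of the 2 groups alone, none was called by limma, and the adjusted p of Ctsk was 0.051. That fit called 36 of all tested genes (0.207%).

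Markers of other cells moved with the same comparison. Of 10 genes of monocyte-derived or interstitial macrophages 6 were higher at 2 weeks, among them Apoe (5.35 on the log2 scale) and C1qb (5.41), and none was lower. Their summed normalized counts were 3172 to 3261 in control, 6110 to 8819 in 2-week and 3436 to 4275 in 4-week MHCII-low cells. Of 10 resident alveolar macrophage genes 1, Car4, was higher and none lower, and their sum was 281170 to 322863 in control and 401114 to 497961 at 2 weeks. Of 8 alveolar epithelial genes 2 were higher, Sftpc and Slc34a2 (sums of 5428 to 5434 in control and 5772 to 8196 at 2 weeks), and of 8 fibroblast and endothelial genes 1, Vwf (1987 to 2430 and 3373 to 5627). Of the dendritic cell, lymphocyte, neutrophil and eosinophil genes none was called, and at 2 weeks Cd209a, Elane, Camp and Prg2 were at 0 in all MHCII-low libraries. The calls of Sftpc, Slc34a2, Vwf and Car4 were each lost without at least 1 control library. Those of Slc34a2 and Vwf were also lost with library totals without mitochondrial rRNA and with the mitochondrial rRNA share as a covariate. The part of these other transcripts in the cathepsin differences was not tested. In these sorted bulk cells a change in the mix of cells and a change of transcript per cell cannot be told apart.

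At 4 weeks after bleomycin, no cathepsin passed the test against control in MHCII-low cells, where 0.046% of all genes were called. Limma gave 2 cathepsins among 1065 of the 17390 genes at an unadjusted p under 0.05. EdgeR and DESeq2 called 0 cathepsins, among 2 and 77 genes. Those 2 were Ctsb, at 74465, 53031 and 69236 normalized counts (0.67 ± 0.21 on the log2 scale above control, limma adjusted p = 0.55), and Ctsk, at 6869, 7117 and 9249 (0.59 ± 0.19, adjusted p = 0.55). Each of these libraries still lay above both controls, as it did for Ctsh, Ctss and Ctsz. Such separation was seen in 11.4% of all tested genes. Ctsl, in contrast, was at 4175, 4920 and 6918 normalized counts, around the control values, with a difference of -0.23 ± 0.28.

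Ctsk and Ctsl fell between 2 and 4 weeks, in MHCII-low and in MHCII-high cells alike. In MHCII-low cells 0.748% of all genes were called lower and in MHCII-high cells 0.759%, and these were the 2 cathepsins called in each. Ctsk fell by 1.38 ± 0.17 on the log2 scale in MHCII-low cells (SE, limma adjusted p = 5.5e-05), a 2.61-fold drop. In MHCII-high cells it went from 14090, 11683 and 13728 normalized counts to 6735, 6779 and 6486, so that it fell by 0.98 ± 0.17 (limma adjusted p = 0.0063), or 1.97-fold. The 4-week MHCII-high values lay close together and well apart from the 2-week values.

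Ctsl fell by 1.56 ± 0.25 on the log2 scale in MHCII-low cells (limma adjusted p = 0.0016), a 2.95-fold drop. In MHCII-high cells it went from 12780, 10635 and 17788 normalized counts to 4962, 5713 and 6541, so that it fell by 1.23 ± 0.25 (limma adjusted p = 0.02). The highest 4-week library was well under the lowest 2-week library in each cell population. The Ctsl call in MHCII-high cells was lost without 2-week MHCII-high replicate 1 (adjusted p = 0.064), without 2-week MHCII-high replicate 3 (0.1) and without 4-week MHCII-high replicate 1 (0.064). The other 3 calls, for Ctsk in each population and Ctsl in MHCII-low cells, held with any 1 library left out, and the 4 were lost by limma when only the groups compared were fitted. That fit called 15 of all tested genes in MHCII-low and 0 in MHCII-high cells.

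The remaining 8 were not called by limma, although all 10 estimates were below 0 in both populations. The medians over the 10 genes were -0.34 in MHCII-low and -0.48 in MHCII-high cells, against 0.03 and -0.07 over all genes. The small MHCII-low differences of Ctsh and Ctso turned to 0.06 and 0.05 when scaled to library totals without mitochondrial rRNA. In MHCII-high cells the 2-week and 4-week libraries did not overlap for 8 of the 10 cathepsins, all lower at 4 weeks, which held for 9.06% of all genes. In MHCII-low cells this was so for 4, Ctsd, Ctsk, Ctsl and Ctss, and for 6.76% of all genes. As shares of the counts outside mitochondrial rRNA, Ctss overlapped in each population and Ctso in MHCII-high cells. Ctsb in MHCII-high cells was nearest to the threshold among those not called, at 116625, 107480 and 117821 normalized counts at 2 weeks and 63765, 63287 and 79859 at 4 weeks (-0.73 ± 0.19 on the log2 scale, limma adjusted p = 0.063), and DESeq2 called it (-0.72, adjusted p = 0.0099). Ctsd differed by -0.92 ± 0.29 in MHCII-low cells (limma adjusted p = 0.22), where DESeq2 called it (-0.98, adjusted p = 0.014), and by -0.66 ± 0.29 in MHCII-high cells (limma adjusted p = 0.3).

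Markers also moved over this interval. Of the monocyte-derived macrophage genes, Ccr2 was lower at 4 weeks in MHCII-high cells (not without 2-week MHCII-high replicate 3, adjusted p = 0.074), and the sum of the 10 genes in these cells went from 31695 to 45123 normalized counts at 2 weeks to 15151 to 18049 at 4 weeks. The fibroblast and endothelial sum went from 3373 to 5627 down to 1758 to 2869 normalized counts in MHCII-low cells. Of the monocyte-derived and the resident macrophage genes, 1 each was lower in MHCII-low cells. Other markers rose: 1 eosinophil gene in each population and 1 dendritic cell gene in MHCII-high cells. The median over the 8 dendritic cell genes in MHCII-high cells was -0.08 on the log2 scale. Over the 4 tested eosinophil genes it was -0.41 in MHCII-low and 1.47 in MHCII-high cells. The eosinophil sum went from 3008 to 4634 up to 5702 to 9078 normalized counts in MHCII-low cells. Epx and Prg2 were at 0 in all 4-week MHCII-low libraries, so the rise of this sum was not shared by the list. In MHCII-high cells the eosinophil sum went from 1492 to 1884 up to 4497 to 8152. The part of these transcripts in the fall of Ctsk and Ctsl was not tested.

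**Figure D3:**
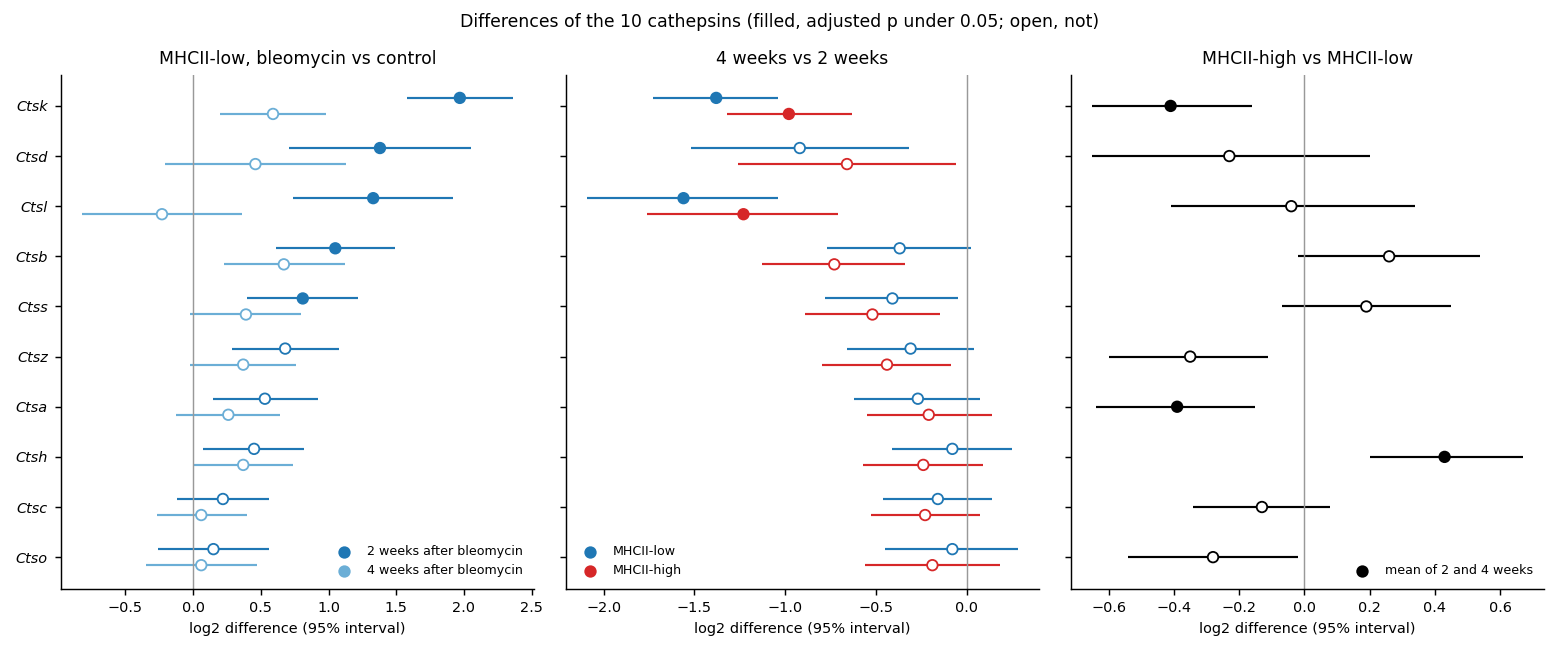
Differences of each cathepsin on the log2(normalized count + 1) scale with 95% intervals, for bleomycin against control in MHCII-low cells (left), 4 against 2 weeks (middle) and MHCII-high against MHCII-low cells (right); filled points passed the test. At 2 weeks 5 cathepsins are filled to the right of 0, led by Ctsk at 1.97, and Ctsk and Ctsl are filled to the left of 0 in the middle panel for both cell populations.

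Between MHCII-high and MHCII-low cells of treated mice, no cathepsin estimate over both times was farther from 0 than 0.43 on the log2 scale. At 2 weeks and at 4 weeks taken alone, limma called none of the 10, while 2.87% and 2.5% of all genes were called. At an unadjusted p under 0.05 there were 4 and 3 cathepsins, among 2675 and 2612 of the 17390 genes. EdgeR called 1 and 0 cathepsins among 432 and 366 genes, and DESeq2 2 and 0 among 1055 and 898. Averaged over both times, 3 were called: Ctsh was higher in MHCII-high cells, where 5% of all genes were called higher, and Ctsk and Ctsa were lower, where 2.21% of all genes were called lower.

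Ctsh was listed at 6526, 7728 and 7762 normalized counts in MHCII-high cells against 5148, 4307 and 6100 in the MHCII-low population at 2 weeks. The 4-week values were 5728, 5791 and 7181 against 5186, 4524 and 4890. The MHCII-high libraries lay above the MHCII-low libraries at each time, as they did for 12.9% of all tested genes at 2 weeks and 8.26% at 4 weeks. The lowest Ctsh values of all were the controls at 3751 and 3783. Over both times the difference was 0.43 ± 0.11 on the log2 scale (limma adjusted p = 0.021), or 1.35-fold. The call was lost without 2-week MHCII-high replicate 2 (adjusted p = 0.06), 2-week MHCII-low replicate 2 (0.065), 4-week MHCII-low replicate 2 (0.053) or 4-week MHCII-high replicate 3 (0.052), with TMM factors (0.059), with edgeR (0.066) and with the mitochondrial rRNA share as a covariate (0.08).

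Ctsk was lower in each 2-week MHCII-high library than in any 2-week MHCII-low library, as were 8.26% of all tested genes. Its difference was -0.61 ± 0.17 on the log2 scale (limma adjusted p = 0.052). The same contrast passed with edgeR (-0.69, adjusted p = 0.038) and DESeq2 (-0.63, 0.009). At 4 weeks the difference was -0.20 ± 0.17 (adjusted p = 0.62). Over both times it was -0.41 ± 0.12 (limma adjusted p = 0.039). Ctsa was listed at 41719, 37218 and 48294 normalized counts against 64263, 47897 and 59459 at 2 weeks, and at 34792, 36852 and 38178 against 53150, 38865 and 50019 at 4 weeks. The groups overlapped slightly at 2 weeks and were apart at 4 weeks, where 8.13% of all tested genes were also lower without overlap. The mean difference of Ctsa was -0.39 ± 0.12 (limma adjusted p = 0.044).

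The Ctsk and Ctsa calls were each lost when any of 9 of the 12 libraries compared was left out (adjusted p up to 0.12 and 0.13). They held only without 2-week or 4-week MHCII-low replicate 2, and in addition without 4-week MHCII-low replicate 1 for Ctsk and 2-week MHCII-high replicate 3 for Ctsa. Both were lost with the mitochondrial rRNA share as a covariate, where the differences were -0.30 (adjusted p = 0.34) and -0.27 (0.38). With the GC trend removed the Ctsa call was lost as well (-0.26, adjusted p = 0.17), while Ctso was called (-0.39, 0.029). Ctsz, not called by limma, was called with TMM factors (-0.42, 0.034), edgeR (-0.43, 0.03), DESeq2 (-0.37, 0.028) and without 2-week MHCII-low replicate 2 (-0.46, 0.014). Ctsb and Ctss, the other enzymes with the highest levels in 2-week MHCII-high cells, differed by 0.26 ± 0.13 and 0.19 ± 0.12 over both times and did not pass the test. Ctsl differed by -0.04 ± 0.18, with a 95% interval of -0.41 to 0.34. None of the 10 was called for a difference of the MHCII effect between 2 and 4 weeks, nor was any other gene (0% of 17390, with 987 genes and no cathepsin at an unadjusted p under 0.05, 0 genes by edgeR and 56 by DESeq2).

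Far larger differences in other transcripts went with the sort. Of 10 resident alveolar macrophage genes 8 were lower in MHCII-high cells over both times, led by Marco (-1.55 on the log2 scale), Krt79 (-1.31) and Siglecf (-0.99), and of 10 monocyte-derived macrophage genes 8 were higher, led by Ccr2 (2.63), Cx3cr1 (4.86) and C1qc (5.49). Of 8 dendritic cell genes 5 were higher, of 8 lymphocyte genes 4 of the 7 tested, and of 8 alveolar epithelial genes 4, with Slc34a2 at 2.47, Sftpc at 2.62 and Lamp3 at 3.20. The epithelial sum was 11622 to 17379 normalized counts in 2-week MHCII-high against 5772 to 8196 in MHCII-low cells. Ctsh is also made by alveolar type II cells, where it takes part in processing surfactant proteins, and the part of these transcripts in its difference was not tested.

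By group, Ctsk was highest in 2-week MHCII-low cells, followed by 2-week MHCII-high, 4-week MHCII-low, 4-week MHCII-high and control cells, and each group's libraries were separate from the next. Their means were 20298 ± 3896, 13167 ± 1298, 7745 ± 1308 and 6667 ± 158 normalized counts (SD, n = 3 each) and 5135 ± 806 (SD, n = 2). Ctsl followed the order 2-week MHCII-low, 2-week MHCII-high, control, 4-week MHCII-high and 4-week MHCII-low cells, in which only the step from 2-week MHCII-high to control was free of overlap. Ctsb and Ctss shared another order, 2-week MHCII-high, 2-week MHCII-low, 4-week MHCII-high, 4-week MHCII-low and control cells, and only the last step did not overlap. Ctsd was highest in 2-week MHCII-low and lowest in control cells, with its sole step free of overlap between the 2-week and the 4-week groups.

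Across the 14 libraries Ctsk and Ctsl went together (Pearson r = 0.88 on the log2 scale), as did Ctsb with Ctss (0.89), Ctsb with Ctsh (0.86), Ctsh with Ctss (0.82) and Ctsa with Ctsz (0.85). Ctsk also went with Ctsd (0.82) and Ctsz (0.81). Ctsh was close to unrelated to Ctsa (-0.03) and Ctsc (0.02) and ran against Ctso (-0.49). These are descriptions over libraries that share group, depth and scaling. Among all tested genes the 5 most like Ctsk over the 14 libraries were Aldoc (0.972), a glycolytic aldolase, Gpnmb (0.964), a membrane glycoprotein of lysosome-rich macrophages, F7 (0.944), coagulation factor VII, Gm15448 (0.94) and Cd14 (0.94), the lipopolysaccharide co-receptor. Among the 5 most like Ctsh were H2-DMb1 (0.945), which loads peptide onto MHC class II, Lyz1 (0.944), a lysozyme, Ecm1 (0.938), an extracellular matrix protein, and Apoe (0.929).

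Ctsk and Ctss lie side by side on chromosome 3 in the same direction, 17423 bases apart, and their correlation was 0.75. The nearest of the other members on a shared chromosome, Ctsa and Ctsz, lie 9586460 bases apart. In all, 6 other genes overlap members in the deposited coordinates, and no source used here states whether counting used strand. The overlaps with the highest counts were Pltp with Ctsa and Fdft1 with Ctsb, both on the opposite strand, with mean normalized counts of 6.18% and 3.37% of the member's. Nelfcd overlaps Ctsz by 10 bases and had 10.9%, and Gm26522 overlaps Ctsc and had 1.9%.

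Short stretches of promoter sequence are shown because TFEB and its relatives, known activators of lysosomal genes, bind the palindrome CACGTG, and several cathepsins moved together. The RefSeq promoter table (GRCm38.p6, 250 bases before to 50 after each start) held 9 windows for 8 members, with 2 starts for Ctsa. It held none for Ctsb and Ctsh, whose promoters were not searched. CACGTG was found in windows of 3 members, Ctsd, Ctsl and Ctsa, and in those of 8.09% of 27025 genes (7.15% of 32851 windows). The longer TCACGTG, read on both strands and always overlapping the first, was found in 2 members, Ctsd and Ctsa, and in 4.29% of genes (3.77% of windows). Each site is given with up to 30 bases of its strand, 5′ to 3′, with CACGTG in capitals, and its position is counted from the start that RefSeq gives.
Ctsd, minus strand, chr7:142388055-142388077, motif at position -245: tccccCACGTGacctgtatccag
Ctsd, minus strand, chr7:142387908-142387937, motif at position -98: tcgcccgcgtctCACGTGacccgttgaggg
Ctsl, minus strand, chr13:64370739-64370768, motif at position -236: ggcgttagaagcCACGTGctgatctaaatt
Ctsa, plus strand, chr2:164833749-164833778, motif at position -12 from its second start: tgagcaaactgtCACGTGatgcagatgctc
Ctsa, plus strand, chr2:164833766-164833795, motif at position 5 from its second start: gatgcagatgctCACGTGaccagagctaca
Every site of Ctsd and Ctsa holds the longer form on at least 1 strand, and that of Ctsl does not. Ctsk, the cathepsin with the strongest rise at 2 weeks, has neither motif in its window. Of the 250 bases before the start, 211 for Ctsd, 164 for the second start of Ctsa and 48 for Ctsl lie in annotated exons (GENCODE M21). The second Ctsd stretch and both Ctsa stretches lie within the deposited spans of those genes. The Ctsl window lies wholly before the deposited start of Ctsl (64370306), so its site is farther from that start than from the RefSeq start. The letters say nothing of binding. The 250 bases before its start, shown for comparison, overlap no annotated exon.
Ctsk, plus strand, chr3:95498960-95499209: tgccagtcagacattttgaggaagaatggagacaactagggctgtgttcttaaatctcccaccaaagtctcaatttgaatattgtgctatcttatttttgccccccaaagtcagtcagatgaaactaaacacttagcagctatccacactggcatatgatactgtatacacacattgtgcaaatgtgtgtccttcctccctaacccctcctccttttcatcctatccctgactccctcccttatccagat

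Of the 4 factors of the TFEB family, Tfeb, Tfe3, Mitf and Tfec, 1 was higher in MHCII-low cells at 2 weeks than in control: Tfec, from 5726 to 6307 normalized counts in control to 8354 to 11212 (0.71 ± 0.16 on the log2 scale, limma adjusted p = 0.021), a call lost without 2-week MHCII-low replicate 1 or 2 or either control library (adjusted p up to 0.28). The Tfec call was also lost with library totals without mitochondrial rRNA (0.50, limma adjusted p = 0.1) and with the mitochondrial rRNA share as a covariate (0.72, 0.06). Tfeb differed by 0.08 ± 0.34, Tfe3 by 0.07 ± 0.22 and Mitf by 0.06 ± 0.21. Their median was 0.08, against -0.09 over all genes. None of the 4 was called between MHCII-high and MHCII-low cells over both times or between 4 and 2 weeks.

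Among inhibitors of cysteine cathepsins (13 genes, 5 of them tested), Cstb, which encodes stefin B of the cytosol, rose at 2 weeks in MHCII-low cells, from 814 to 1184 normalized counts in control to 1844 to 3036 (1.26 ± 0.25 on the log2 scale, limma adjusted p = 0.0073). Without control replicate 1 it was 0.99 with an adjusted p of 0.25, and without 2-week MHCII-low replicate 1 it was 1.07 with 0.053. With the mitochondrial rRNA share as a covariate Cstb was at 1.13 (limma adjusted p = 0.054). Cst3, the secreted cystatin C, was at 2016 to 2254 normalized counts in control and 2608 to 5246 at 2 weeks (0.82 ± 0.23, adjusted p = 0.085). Ctla2b, an inhibitor resembling a cathepsin propeptide, was the one called between MHCII-high and MHCII-low cells over both times (limma adjusted p = 0.015). The call was lost without 2-week MHCII-low replicate 1 (adjusted p = 0.051). It was scarce, at 3.7 to 56.2 normalized counts in MHCII-high and 0 to 4.4 in MHCII-low cells. Stfa1, Stfa2 and Stfa3 were listed at 0 in all 14 libraries.

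Of 10 genes that process cathepsins or sort them to the lysosome, 1 rose in MHCII-low cells at 2 weeks (median over the 10 of 0.30): Lgmn, legumain, the asparagine-specific protease that helps cut several cathepsin precursors, from 2843 to 2998 normalized counts in control to 4580 to 6656 (0.91 ± 0.21 on the log2 scale, limma adjusted p = 0.023). This call too was lost without 2-week MHCII-low replicate 1 or 3 or either control library (adjusted p up to 0.24). At 2 weeks the Lgmn call was lost as well with library totals without mitochondrial rRNA (0.70, limma adjusted p = 0.11) and with the mitochondrial rRNA share as a covariate (0.67, 0.17). Over both times 2 genes were higher in MHCII-high cells and 2 lower. Igf2r, the large mannose 6-phosphate receptor, was higher by 2.21 ± 0.28 (limma adjusted p = 1.6e-05) and Lgmn by 0.47 ± 0.13 (0.031), while Nagpa, which uncovers the mannose 6-phosphate tag, differed by -0.57 ± 0.15 (0.018) and Sort1, sortilin, by -0.39 ± 0.11 (0.037). Sort1 was named after its values were seen. The Lgmn call was lost when any of 6 libraries was left out (adjusted p up to 0.086): replicates 1 and 3 of 2-week MHCII-high, 1 and 2 of 2-week MHCII-low, 1 of 4-week MHCII-high and 2 of 4-week MHCII-low cells. It was also lost with TMM factors (0.068), edgeR (0.077) and no filter (0.072). With the mitochondrial rRNA share as a covariate Nagpa was at -0.37 with an adjusted p of 0.33. The call of Nagpa was lost without 2-week MHCII-high replicate 1 or 2, 2-week MHCII-low replicate 1 or 4-week MHCII-low replicate 1 (up to 0.055), and that of Sort1 was kept only without 2-week MHCII-low replicate 1 or 4-week MHCII-high replicate 2 (up to 0.11 without the others). Igf2r fell by 2.14 ± 0.39 from 2 to 4 weeks in MHCII-high cells (limma adjusted p = 0.0091), and that call was lost when only the groups compared were fitted (0.068).

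**Figure D4:**
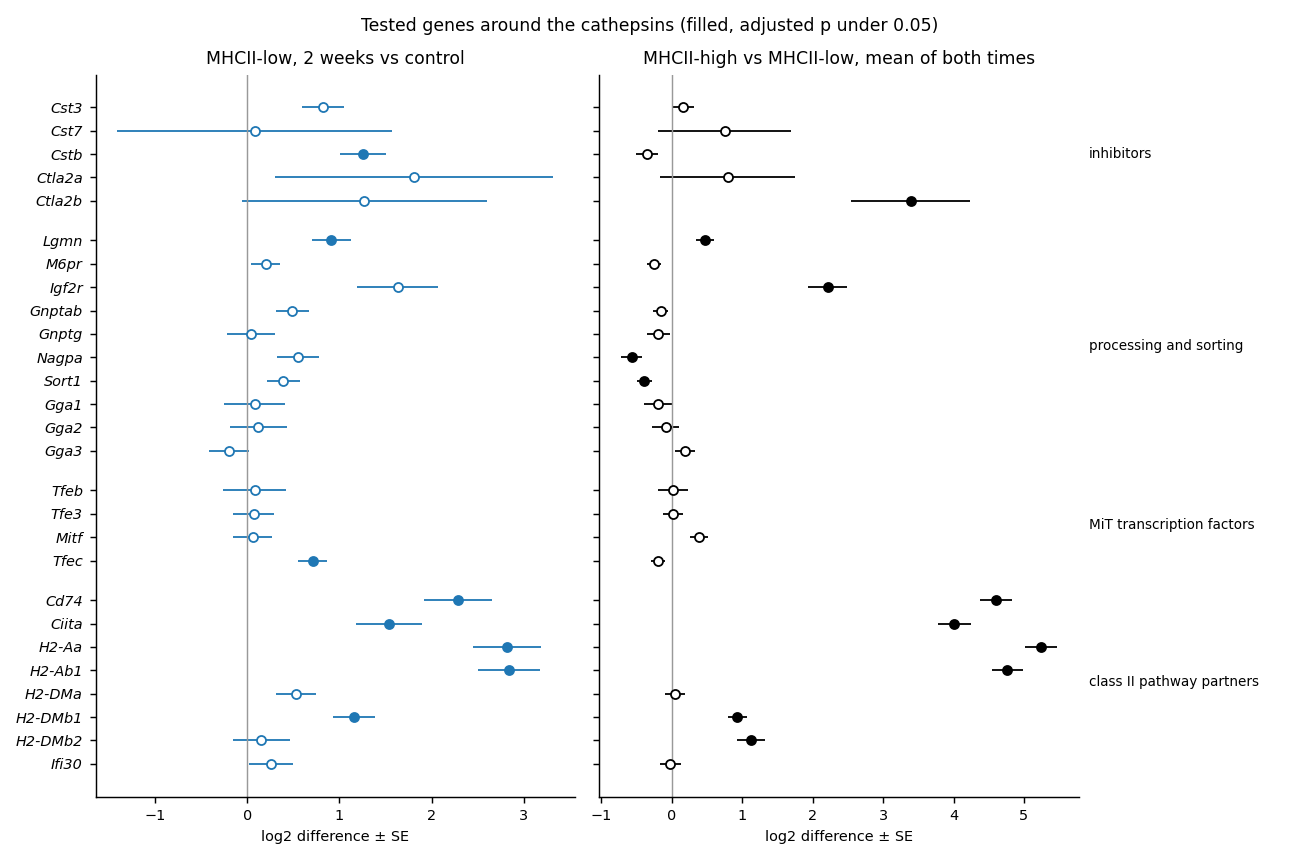
Differences (points) with their standard errors (bars) on the log2(normalized count + 1) scale for the tested genes around the cathepsins, grouped by role at the right, at 2 weeks against control in MHCII-low cells (left) and in MHCII-high against MHCII-low cells over both times (right). Filled points passed the test: the class II pathway genes H2-Ab1 and H2-Aa reach 2.84 (left) and 5.24 (right), and in the other groups few points are filled.

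The partners of cathepsins S and L in the class II pathway differed much more than the enzymes did. Of 8 such genes 6 were higher in MHCII-high cells over both times, led by H2-Aa (5.24 on the log2 scale) and H2-Ab1 (4.76), the class II chains, and Cd74 (4.60), the invariant chain, which are the products that the sort selected for or travel with it. In MHCII-low cells 5 of the 8 were higher at 2 weeks than in control, with H2-Ab1 at 2.84, H2-Aa at 2.82 and Cd74 at 2.29, and 1 at 4 weeks, H2-Ab1 at 2.14. The last was lost without 4-week MHCII-low replicate 1 or 3 or either control library (adjusted p up to 0.24). The medians over the 8 genes were 2.56 for MHCII-high against MHCII-low cells and 1.35 at 2 weeks against control, where those of all genes were 0.02 and -0.09.

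Among 12 other cathepsin genes in the table, 3 passed the filter. Ctse, an aspartic cathepsin of endosomes, was at 2554 to 3146 normalized counts in 2-week and 1222 to 1877 in 4-week MHCII-high cells, against 565 to 1593 and 348 to 518 in MHCII-low cells, a difference of 1.72 ± 0.21 over both times (log2 scale, limma adjusted p = 1.1e-05). This was larger than that of any of the 10 main cathepsins and held without any 1 library. Ctsf and Ctsw were not called in any comparison, and the 9 untested genes reached 2.6 normalized counts at most.

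Of the partners of cathepsin A, Neu1 (neuraminidase) and Glb1 (beta-galactosidase) were not called in any of the 8 comparisons. Of the 7 serine proteases that cathepsin C activates, 1 was tested, Gzma, and it was not called. Of 8 extracellular matrix proteins that cathepsins can cleave, Fn1, fibronectin, rose in MHCII-low cells at 2 weeks by 2.82 ± 0.23 on the log2 scale (limma adjusted p = 2e-07), and fell by 1.78 ± 0.21 from 2 to 4 weeks in these cells (4.6e-05). In MHCII-high cells it fell by 1.15 ± 0.21 (0.0091) over that interval, and over both times it was higher in MHCII-high than in MHCII-low cells by 0.96 ± 0.15 (2e-04). The Fn1 call in MHCII-high cells over time was lost without 2-week MHCII-high replicate 3 (adjusted p = 0.064). Col1a1, a collagen I chain, differed by 3.05 ± 1.44 at 2 weeks and was not called there. From 2 to 4 weeks in MHCII-low cells Col1a1 went from 82.8 to 171 normalized counts down to 0 to 6 (-5.51 on the log2 scale, limma adjusted p = 0.042), a call of a scarce transcript that was lost without any 1 of the 6 libraries (adjusted p up to 0.22).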

How the data were processed

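Lung cells were dissociated, stained and sorted, and mRNA was amplified into cDNA libraries, per the labels' protocols. Alignment to mm10 and the use of STAR and DESeq2 are named in the submitters' processing notes, with versions not given in the sources used here. The authors deposited a table of normalized counts per gene (a signal on each library's own scale, divided by a size factor), with gene coordinates, GC content in percent and exon length per the file headers. No per-sample column was left unused (0). Reads per library were recovered as whole multiples of the smallest step (0.39 to 2.24 normalized counts per read, 100% of values within 0.06 of a multiple, which up to 30.8% would be by chance). The step of control replicate 1 is less certain than the others, and its reads with it. Gene spans of 8 members were identical to those of GENCODE M21, and those of Ctsb and Ctsl differed.

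The 17390 genes that reached 10 normalized counts in 2 or more libraries were tested on log2(value + 1) with limma 3.58.1 in R (trend, 1 coefficient per group, 14 libraries), with p-values adjusted over all tested genes within each of 8 comparisons. The code was tested on simulated data. Alternatives were edgeR, DESeq2, other scalings, filters and covariates, a replicate block and each library left out. Interval levels are 95%. Named genes are all 10 cathepsins, and from each list up to 3 genes past the threshold with the smallest p, or up to 2 of the highest where none passed. The 5 genes most like Ctsh and Ctsk were found by Pearson's r. The members and lists were chosen with earlier results of these data known. Some genes that this rule names are not reported here.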

Additional observations from a re-analysis of the deposited data

Results flagged for a closer look

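MHCII-low cells taken 2 and 4 weeks after bleomycin differed in 2 cathepsins, by the limma test of 4 against 2 weeks, whose difference uses no control library. The control libraries are not split by time, so a change of the bleomycin effect and other changes over time cannot be told apart. For Ctsk the difference was -1.38 on the log2 scale, with adjusted p = 5.5e-05, and all 3 of the 4-week libraries lay below all 3 of the 2-week libraries. For Ctsl it was -1.56, with adjusted p = 0.0016 and the same separation, which 6.76% of all tested genes showed. Groups of 2 or 3 libraries are too small for a search for single outlying libraries.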

How the results depend on the processing

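None of the 12 called cathepsin differences changed sign under any alternative. Over all genes, the 332 calls at 2 weeks against control became 213 with the mitochondrial rRNA share as a covariate. They became 341 with no filter on low values and 36 with only the groups compared. At 2 weeks against control the 5 calls became 2 with the mitochondrial rRNA share as a covariate, 2 with no filter on low values and 0 with only the groups compared fitted, and 2 to 6 with a library left out. The 2 calls of 4 against 2 weeks became 0 in MHCII-low and 0 in MHCII-high cells with only the groups compared, where fewer libraries set the spread. In that fit 15 of all tested genes were called in MHCII-low and 0 in MHCII-high cells, against 149 and 186 in the main fit. With no filter the cathepsin calls became 1 in MHCII-high cells, among 103 of all genes. With a library left out they were 2 in MHCII-low and 1 to 2 in MHCII-high cells. For MHCII-high against MHCII-low cells over both times the 3 calls became 1 with library totals, 0 with the mitochondrial covariate and 1 with no filter, and 0 to 3 with a library left out. In the first 3 of these settings 1202, 500 and 917 of all genes were called, against 1254 in the main fit. At 2 weeks alone the count of 0 became 1 with pseudocount 8, the CPM filter, TMM factors, edgeR, the GC trend removed or the replicate block, 2 with DESeq2, and 0 to 1 with a library left out. The settings with 1 cathepsin called 432 to 586 of all genes and DESeq2 1055, against 499 in the main fit.

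Signs turned only for differences that were never called. With library totals without mitochondrial rRNA, Ctso at 2 weeks against control was -0.06, Ctsc and Ctso at 4 weeks against control were 0.00 and 0.00 with the sign turned, and Ctsh and Ctso at 4 against 2 weeks in MHCII-low cells were 0.06 and 0.05. Ctsd between MHCII-high and MHCII-low cells at 4 weeks was 0.10 with the GC trend removed, and Ctsl over both times was 0.07 with the mitochondrial covariate. With a library left out, MHCII-high against MHCII-low values ran from -0.40 to 0.15 for Ctsl at 2 weeks, -0.03 to 0.33 at 4 weeks and -0.14 to 0.14 over both times, and at 4 weeks from -0.07 to 0.18 for Ctsb and -0.06 to 0.28 for Ctss. Against control at 4 weeks they ran from -0.01 to 0.14 for Ctsc, -0.19 to 1.11 for Ctsd and -0.09 to 0.23 for Ctso, and from 2 to 4 weeks in MHCII-low cells from -0.21 to 0.05 for Ctsh and -0.24 to 0.08 for Ctso. The causes were not tested. With only the groups compared, the 2-week calls against control of Apoe, C1qb, Car4, Cd74, Cstb, H2-Aa, H2-Ab1, Lgmn, Sftpc, Slc34a2, Tfec and Vwf were lost (adjusted p 0.095 to 0.19), as were those of H2-Ab1 at 4 weeks (0.43) and, for 4 against 2 weeks, of Col1a1 (0.1), Ccr2 (0.13), Fn1 (0.064 in MHCII-low and 0.18 in MHCII-high cells) and Igf2r (0.068). Of 60 group levels and ranks, 10 moved, 6 levels by over 1 SD under library totals and 4 ranks when not divided by length.

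The labels do not say whether same-numbered MHCII-high and MHCII-low libraries share a mouse, so they may, and they were not treated as pairs: deviations of same-numbered libraries correlated at 0.11, 0.07 and 0.02 at 2 weeks and 0.01, 0.03 and 0.02 at 4 weeks, and not every library correlated best with its own number. The replicate block for MHCII-high against MHCII-low cells joined same-numbered libraries of the same time, and 1 cathepsin was called at 2 weeks, among 487 of all genes (499 in the main fit). For comparisons with control or between times it joined same numbers across groups, which the labels do not link, so it is no pairing. There 6 cathepsins were called at 2 weeks against control, among 416 of all genes (332 in the main fit). For 4 against 2 weeks in MHCII-high cells 3 were called, among 202 of all genes (186 in the main fit). With 2 libraries, control limits every comparison with control.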

Other observations

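Ctsc and Ctso were the cathepsins with the smallest range between groups. Like Ctsz, they were called in no comparison of the main fit. Ctsc was listed at 32076 to 35165 normalized counts in control, 35879 to 41507 and 31467 to 38533 in 2-week and 4-week MHCII-low cells, and 33788 to 41745 and 31037 to 31616 in 2-week and 4-week MHCII-high cells. Ctso was listed at 2405 to 2449 in control, 2506 to 3034 and 2021 to 3155 in MHCII-low cells, and 2244 to 2407 and 1840 to 2154 in MHCII-high cells at the same times.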
